A study of Mus musculus with 10 samples.

Results

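The genes described here encode the AMPA and kainate receptors of the brain, 4 AMPA receptor subunits (Gria1, Gria2, Gria3 and Gria4) and 5 kainate receptor subunits (Grik1, Grik2, Grik3, Grik4 and Grik5). They were taken by gene symbol from the table of raw counts per Ensembl gene, where all 9 were found among 29883 genes. The counts come from the nucleus accumbens (NAc), a part of the ventral striatum, of ethanol-naive male mice of 2 inbred strains, 5 C57BL/6J (B6) and 5 DBA/2J (D2). According to the methods the mice were 9 weeks old and no treatment was given. Each mouse gave 1 poly-A library from tissue cut by micropunch or as a wedge from coronal slices, so that the strain was the only factor and the mouse was the replicate.

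AMPA receptors carry most of the fast excitatory current at synapses. Each is built from 4 subunits around a shared pore, and the subunit GluA2, encoded by Gria2, keeps calcium out of that pore. In the NAc, AMPA receptors receive the input from cortex, hippocampus, amygdala and thalamus onto the striatal projection neurons, and the exchange of subunits there has been studied as a form of plasticity after exposure to drugs. Kainate receptors are built in the same way but act more slowly and also modulate transmitter release. Grik1, Grik2 and Grik3 encode subunits that can form channels alone, while Grik4 and Grik5 encode the high-affinity subunits, which need one of the former as a partner.

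All 9 genes carry a glutamine codon at the tip of the pore loop, the Q/R site, and it is shown here because it is where GluA2 differs in function from its relatives. In Gria2, and in part in Grik1 and Grik2, the adenosine of this codon is edited in the RNA so that arginine is read. The 30 bases below are from the GRCm39 reference, which is the B6 genome, read in the direction of transcription and within 1 exon of the transcript that GENCODE vM39 tags as canonical, with the codon in capitals.
Gria1 (chr11:57133896-57133925, plus strand): tggttctcgctgggggccttcatgCAGcaa
Gria2 (chr3:80614215-80614244, minus strand): tggttttccttgggtgcctttatgCAGcaa
Gria3 (chrX:40699118-40699147, plus strand): tggttttccttgggtgcttttatgCAGcaa
Gria4 (chr9:4464134-4464163, minus strand): tggttttccctgggtgcctttatgCAAcaa
Grik1 (chr16:87737427-87737456, minus strand): tggtttggcgttggagctctcatgCAGcaa
Grik2 (chr10:49120422-49120451, minus strand): tggtttggagttggagctctcatgCAGcaa
Grik3 (chr4:125584976-125585005, plus strand): tggtttggaatgggctccctgatgCAGcaa
Grik4 (chr9:42458916-42458945, minus strand): tggtttccggttggaggcttcatgCAGcaa
Grik5 (chr7:24721919-24721948, minus strand): tggttccccgtgggtggcttcatgCAGcag
The codon was CAG in 8 of the genes and CAA in Gria4. Against Gria2, 29 of the 30 bases were identical in Gria3, 28 in Gria4 and 25 in Gria1, while Grik1 shared 29 with Grik2. The codon ended 23 bases before the end of its exon in the 4 AMPA receptor genes, 4 bases before it in Grik1, Grik2 and Grik3, and 56 bases before it in Grik4 and Grik5. Counts per gene hold no base at this codon, so editing was not measured here.

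Between 96977262 and 116776714 reads per library were counted on genes. Marker genes of the striatal projection neurons, such as the dopamine receptor genes Drd1 and Drd2, were present in every library, and no marker of any list was at 0 (lowest raw count 54). B6 replicates 3 and 5 stood apart. The 8 markers of cortical projection neurons, such as the vesicular glutamate transporter Slc17a7, summed to 1328 and 1310 CPM in these mice. They summed to between 246 and 402 in the other 3 B6 mice and to between 369 and 823 in the 5 D2 mice. CPM in such sums and in levels per kb are counts scaled by the library size after edgeR's TMM scaling, not by the library total. B6 replicates 3 and 5 were also the closest pair of libraries of a strain (mean chi-square of 4.89 per gene), still above sampling noise, and were counted as 2 mice. Below, log2 fold changes are of D2 over B6 and stand with their standard error (SE). Values without this pair of mice are given for the receptor genes where leaving it out changed a call or a direction. For the genes that work with the receptors they are given only in part. In bulk tissue, fewer cells of a type and less RNA per cell cannot be told apart.

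In edgeR's quasi-likelihood test over all genes with Benjamini-Hochberg adjustment, 1 of the 9 genes, Gria1, differed between the strains at an adjusted p under 0.05. It was lower in D2. Over all genes tested 18.3% passed this threshold, and 22.3% of those averaging 1000 counts or more, as all 9 did. At an unadjusted p under 0.05 there were 4 of the 9, Gria1, Gria4, Grik1 and Grik4. Many genes passed this looser cut, since Gria4, with the highest p of these, ranked 8710 by p among the 29883 genes. A p that misses the threshold does not show that the strains were alike. DESeq2 called Gria1 and Grik1, against 22.1% of the genes it tested. The median absolute log2 fold change of the 9 genes was 0.055, beside 0.079 over the genes averaging 1000 counts or more. Without B6 replicates 3 and 5 there were 2 calls, Gria1 and Gria3 (19.2% of all genes and 26.2% of those averaging 1000 counts or more). With the cortical marker level of each mouse as a covariate there were 4, Gria1 and Gria3 lower and Grik1 and Grik4 higher in D2 (25.9% of all genes and 36.1% of those averaging 1000 counts or more). As a covariate this level was the mean log2 CPM of the cortical markers, not their summed CPM. For none of the 9 did the 5 values of one strain lie apart from the 5 of the other, where 16.0% of all genes, and 19.5% of those averaging 1000 counts or more, had such separate values. With only the other 3 B6 mice, 2 of the 9, Gria1 and Grik2, had separate values, as did 24.6% of all genes and 32.3% of those averaging 1000 counts or more.

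**Figure D1:**
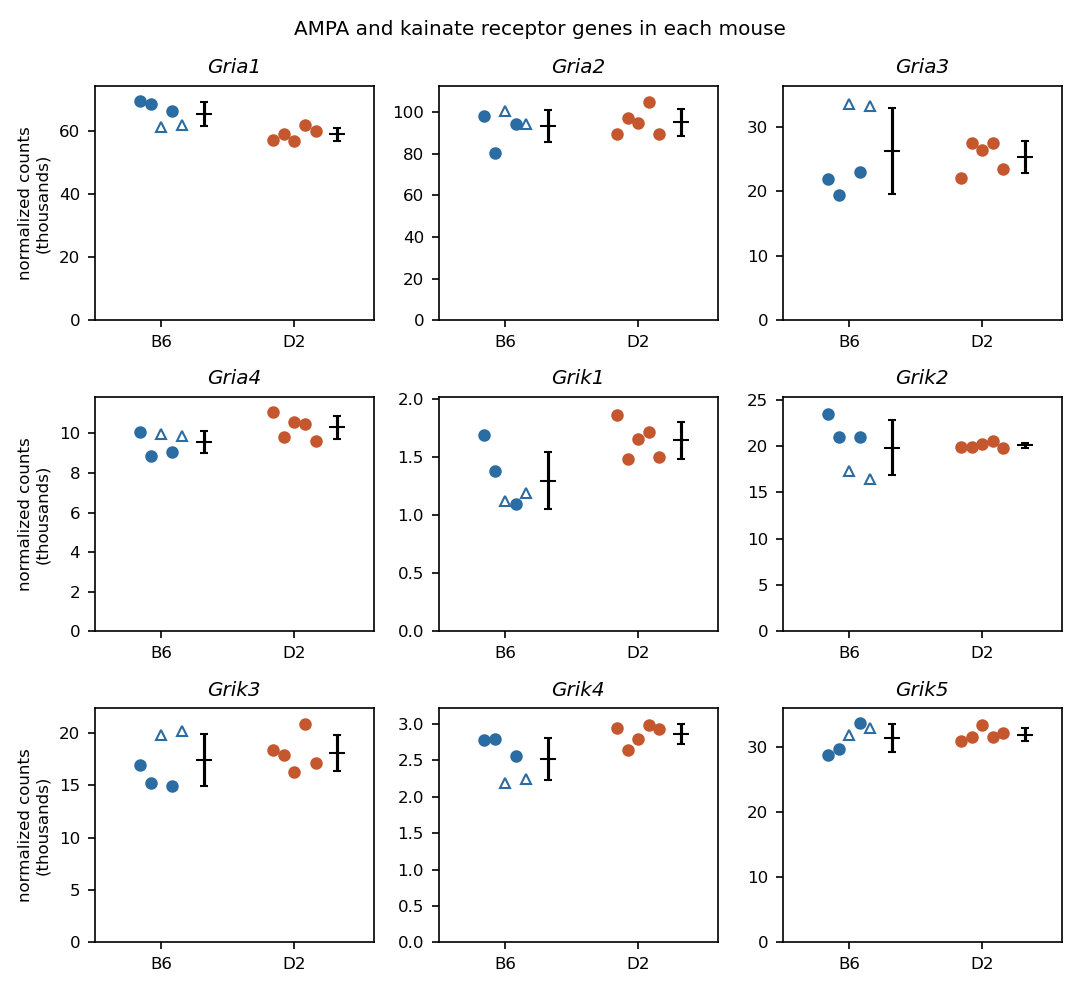
Normalized counts divided by 1000 (vertical axis, from 0) of the 9 genes in each B6 (blue) and D2 (orange) mouse. Open triangles are B6 replicates 3 and 5, and the bar beside each group is the mean ± SD of 5 mice. The strains overlapped in every panel, and the triangles lie apart from the other B6 mice for Gria1, Gria3, Grik2, Grik3 and Grik4.

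Gria1 (ENSMUSG00000020524, chr11:56902153-57221080, plus strand) encodes GluA1, the subunit whose insertion at synapses accompanies potentiation. Its normalized counts, which are raw counts scaled to a common library size, were 69297, 68543, 61016, 66280 and 61745 in B6 replicates 1 to 5. In D2 they were 57053, 59013, 56842, 61755 and 59889. The groups met at 1 point, since D2 replicate 4 lay just above the 2 lowest B6 mice, replicates 3 and 5, and the other 4 D2 mice were below every B6 mouse. The B6 mean of 65376 ± 3822 compared with 58910 ± 2049 for D2 (SD, n = 5), a log2 fold change of -0.15 ± 0.045 (SE), or 0.901-fold (95% interval 0.842 to 0.964, adjusted p = 0.035, edgeR).

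The call of Gria1 depended on the samples and the scaling. Without B6 replicates 3 and 5 the log2 fold change was -0.21 (edgeR adjusted p = 0.0015) and the strains no longer overlapped. With total counts in place of TMM scaling it was -0.12 (adjusted p = 0.142, edgeR). When single mice were left out in turn, 3 of 10 fits kept it, those without B6 replicate 3, B6 replicate 5 or D2 replicate 4. In the others the adjusted p lay between 0.0598 (without D2 replicate 5) and 0.0835 (without B6 replicate 2), with 0.0703 and 0.0701 without B6 replicates 1 and 4 and 0.0808, 0.0661 and 0.0686 without D2 replicates 1, 2 and 3. Marker counts below stand beside 9.83% of all genes called lower and 8.5% called higher in D2, and 22.3% called among genes averaging 1000 counts or more. DESeq2 called 22.1% of the genes it tested. The 10 markers of striatal projection neurons, whose sum was between 4888 and 6272 CPM in B6 and between 4121 and 4988 in D2, held 6 genes that were lower in D2 and 0 that were higher. Of the 6 astrocyte markers 3 were lower in D2, of the 8 oligodendrocyte markers 3 (0 without B6 replicates 3 and 5), of the 8 interneuron markers 1, and of the 6 microglia markers 1 was lower and 1 higher. For the 8 cortical and 6 endothelial markers edgeR called 0, with 0 and 3 at an unadjusted p under 0.05, and DESeq2 called 0 and 2. At least 8710 of all 29883 genes passed that unadjusted cut. When B6 replicates 3 and 5 were left out, 6 of the 8 cortical markers were called, all higher in D2 (median log2 fold change of the list 1.80). These mice were singled out by their high level of the same markers, so the cortical calls follow from that choice and are no separate result. The striatal calls went from 6 to 8, all lower. In the fit without these mice 2 astrocyte markers were lower, 2 interneuron markers were higher and 1 lower, 1 microglia marker was higher and 1 lower, and 0 endothelial markers were called. That fit called 19.2% of all genes and 26.2% of those averaging 1000 counts or more. The part of these cell types in the lower Gria1 counts was not tested.

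Gria2 (ENSMUSG00000033981, chr3:80588757-80710538, minus strand), the most counted of the 9, had 97957, 80465, 100148, 93973 and 94013 normalized counts in B6 and 89520, 96840, 94421, 104778 and 89250 in D2. The ranges largely coincided. The means of 93311 ± 7653 and 94962 ± 6372 (SD, n = 5) gave a log2 fold change of 0.025 ± 0.063 (SE, edgeR adjusted p = 0.846). The 95% interval of the fold ran from 0.926 to 1.12.

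Gria3 (ENSMUSG00000001986, chrX:40489476-40767490, plus strand), on the X chromosome, encodes GluA3, which pairs with GluA2 in receptors of many principal neurons. Its values of 33546 and 33157 normalized counts in B6 replicates 3 and 5 were the highest of the 10 mice, and the other B6 mice had 21932, 19443 and 22944. The D2 mice had 22078, 27431, 26369, 27420 and 23430, all within the range of the B6 mice, and 4 of them lay between replicates 3 and 5 and the other B6 mice. The log2 fold change over all mice was -0.048 ± 0.143 (SE, adjusted p = 0.872, edgeR). Without B6 replicates 3 and 5 it was 0.24 (edgeR adjusted p = 0.044), and with the cortical marker covariate it was -0.094 (edgeR adjusted p = 0.0496). The calls of these fits went in opposite directions. Among the D2 mice, the 2 with the lowest cortical marker level, replicates 1 and 5, also had the lowest Gria3 counts.

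**Figure D2:**
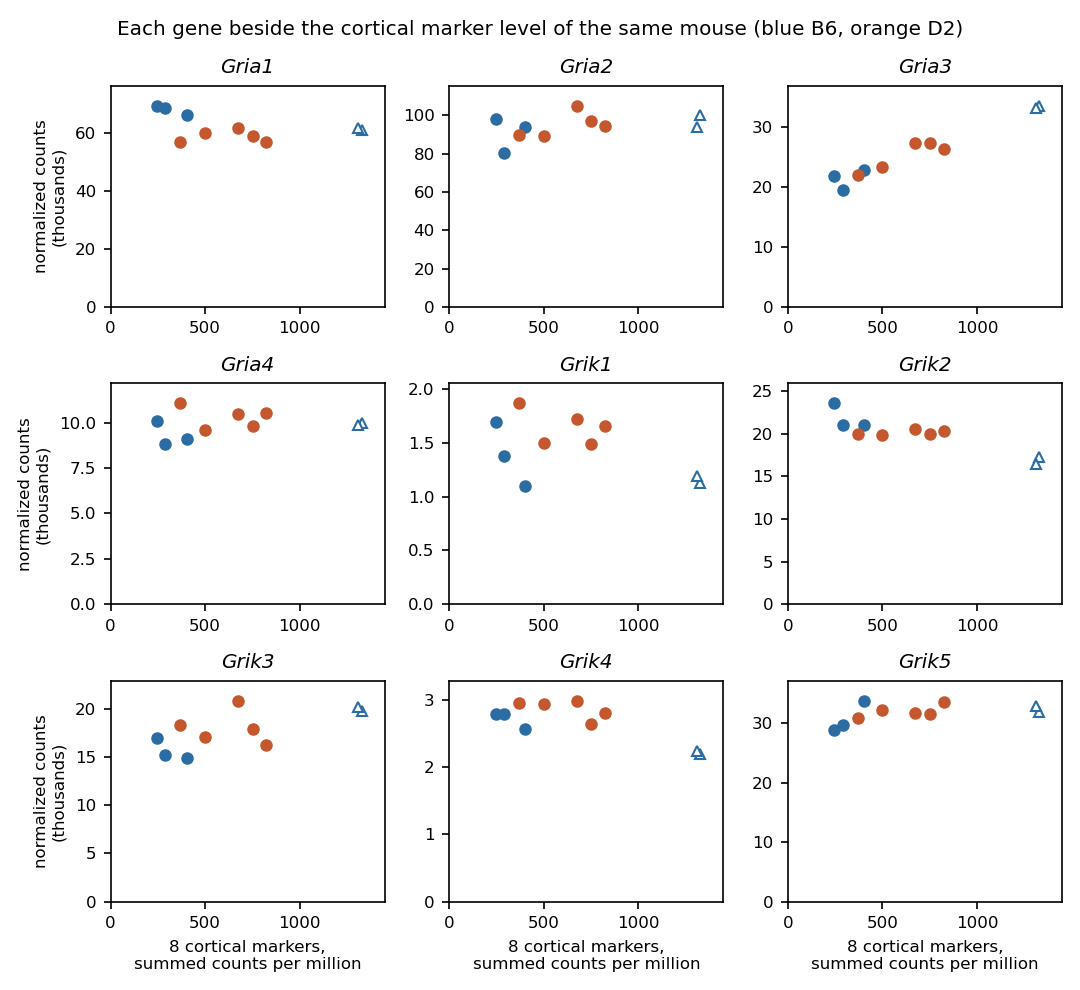
Normalized counts divided by 1000 (vertical axes, from 0) of the 9 genes against the summed CPM of 8 cortical projection neuron markers (horizontal axes), with 1 point per mouse, B6 in blue and D2 in orange. The open triangles, B6 replicates 3 and 5, lie at 1328 and 1310 on the horizontal axis, far from the other 8 mice, which have at most 823.

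Gria4 (ENSMUSG00000025892, chr9:4417604-4796326, minus strand) encodes GluA4, a subunit with fast kinetics that is known from parvalbumin interneurons. It had the fewest counts of the 4 AMPA receptor genes, with 8834 to 10080 normalized counts in B6 (median 9857) and 9602 to 11052 in D2 (median 10491). Of the D2 mice, 3 were above every B6 mouse. The log2 fold change of 0.11 ± 0.049 (SE) did not pass the adjusted threshold (unadjusted p = 0.049, adjusted p = 0.167, edgeR).

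Grik1 (ENSMUSG00000022935, chr16:87692788-88087153, minus strand), which encodes GluK1, was the least counted of the 9, with raw counts between 982 and 2033 per library. The normalized counts were 1691, 1380, 1126, 1097 and 1192 in B6, and 1865, 1489, 1656, 1722 and 1502 in D2. All D2 mice were above 4 of the 5 B6 mice, and 2 of them were above B6 replicate 1 as well. The B6 mean was 1297 ± 246 against 1647 ± 158 for D2 (SD, n = 5), a log2 fold change of 0.34 ± 0.113 (SE). This was the largest of the 9 changes and missed the threshold in edgeR (adjusted p = 0.053), while DESeq2 gave an adjusted p of 0.0177. Without B6 replicate 1 the log2 fold change was 0.46 (edgeR adjusted p = 0.0027). With the cortical marker level as a covariate it was 0.39 (adjusted p = 0.0038, edgeR), and without B6 replicates 3 and 5 it was 0.24 (adjusted p = 0.195, edgeR).

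Grik4 (ENSMUSG00000032017, chr9:42429431-42856154, minus strand), which encodes the high-affinity subunit GluK4, had the same direction. Its normalized counts were 2782, 2793, 2188, 2568 and 2240 in B6 and 2943, 2644, 2801, 2981 and 2929 in D2. In D2, 4 mice were above every B6 mouse, and B6 replicates 3 and 5 were the lowest of all. The log2 fold change was 0.19 ± 0.072 (SE, adjusted p = 0.09996, edgeR). Leaving out B6 replicates 3 and 5 gave 0.074 (adjusted p = 0.383, edgeR), and leaving out B6 replicate 1 gave 0.22 (edgeR adjusted p = 0.0496). With the cortical marker level as a covariate it was 0.23 (edgeR adjusted p = 3.4e-04).

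Grik2 (ENSMUSG00000056073, chr10:48970929-49664880, minus strand), which encodes GluK2, showed unequal spread. In B6 its normalized counts were 23515, 20993, 17301, 20983 and 16434, a coefficient of variation of 14.7%, and in D2 they were 19957, 19931, 20276, 20515 and 19779, or 1.48%. The 3 highest mice and the 2 lowest were all B6, and the D2 mice filled a narrow band between them. The log2 fold change was 0.018 ± 0.082 (SE, adjusted p = 0.923, edgeR). Once B6 replicates 3 and 5 were left out, each B6 mouse was above all D2 mice and the log2 fold change was -0.12 (adjusted p = 0.062, edgeR).

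Grik3 (ENSMUSG00000001985, chr4:125384202-125607966, plus strand), which encodes GluK3, ranged from 14954 to 20202 normalized counts in B6 (median 16989) and from 16252 to 20829 in D2 (median 17934). Its log2 fold change was 0.055 ± 0.092 (SE, adjusted p = 0.763, edgeR), and 0.20 without B6 replicates 3 and 5 (adjusted p = 0.068, edgeR). Grik5 (ENSMUSG00000003378, chr7:24709269-24772708, minus strand), which encodes the high-affinity subunit GluK5, was the most counted of the kainate receptor genes and varied little. It had 28816 to 33765 normalized counts in B6 (median 31962) and 30946 to 33508 in D2 (median 31654). Its log2 fold change of 0.024 ± 0.046 (SE) came with a 95% interval of the fold from 0.948 to 1.09 (edgeR adjusted p = 0.797). Exons of Grik5 share 145 bp with Zfp574 on the other strand (mean of 3909 counts), and the strand setting of the counting is not given in the sources used here.

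**Figure D3:**
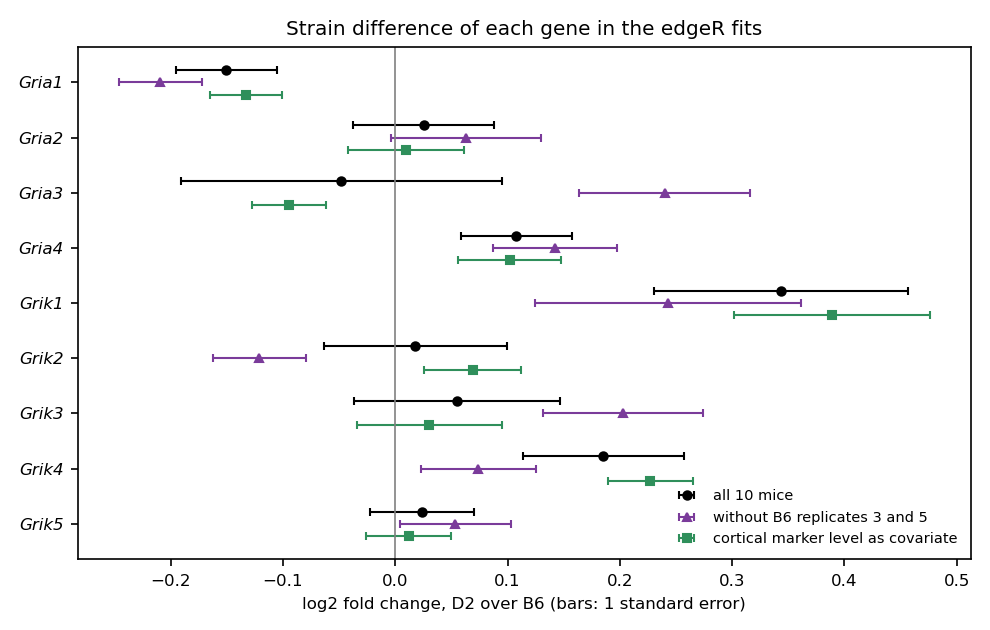
Log2 fold change of D2 over B6 (horizontal axis) of the 9 genes in edgeR with all 10 mice (black circles), without B6 replicates 3 and 5 (purple triangles) and with the cortical marker level as a covariate (green squares), where bars are 1 standard error. Gria1 lies below 0 in each fit, Gria2 and Grik5 stay near 0, and Gria3 goes from -0.094 to 0.24.

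Levels of different genes can be set side by side only per length. Per kb of all annotated exons, Gria1 was highest, with 73.8 ± 4.32 CPM in B6 against 66.5 ± 2.31 in D2 (SD, n = 5). Gria2 followed with 31.5 ± 2.58 and 32.04 ± 2.15, and Grik5 with 31.3 ± 2.09 and 31.8 ± 0.96. The order of Gria2 and Grik5 changed between mice, with Gria2 higher in 4 of 10. Then came Gria3, Grik3, Grik2, Gria4, Grik4 and Grik1, down to 1.79 ± 0.339 in B6 and 2.27 ± 0.217 in D2. Gria3 was above Grik3 in 9 of 10 mice, and the other neighbours in this order kept it in all 10.

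The annotated exons of Gria2 span 27443 bp in all, while its longest transcript has 10767 bp, so its level per kb depends on the length used. Per kb of the longest transcript, Gria2 reached 80.2 ± 6.58 CPM in B6 and 81.7 ± 5.48 in D2, below Gria1 with 98.4 ± 5.75 and 88.6 ± 3.08 and above Grik5 with 57.6 ± 3.84 and 58.6 ± 1.77, each in 10 of 10 mice. By this length Grik2 was above Grik3, and Grik4 above Grik1, in 7 of 10 mice. Per kb of all annotated exons, Grik3 was above Grik2 and Grik4 above Grik1 in 10 of 10. The order of these neighbours thus depended on the length used, and their differences were not tested.

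**Figure D4:**
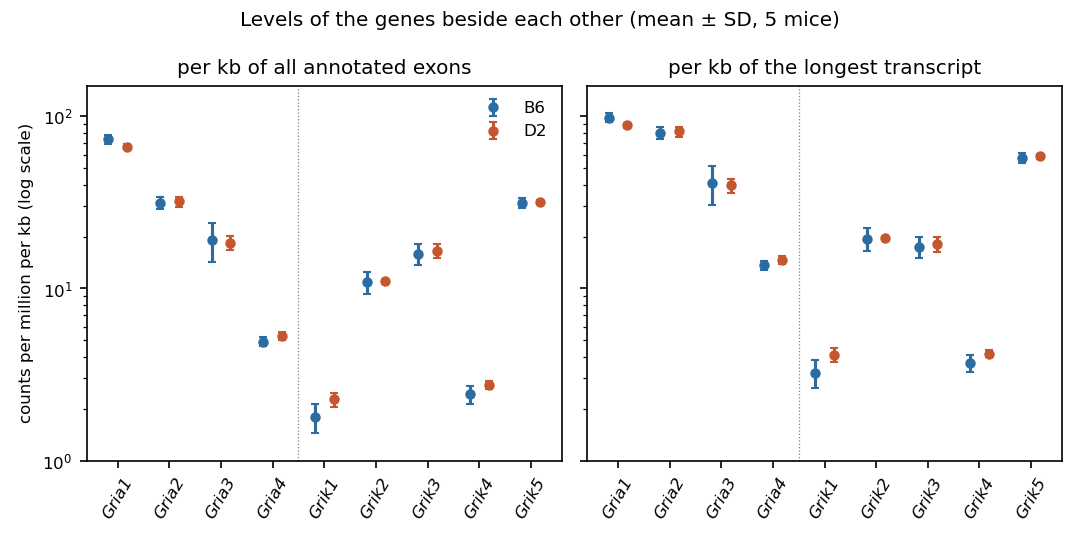
CPM per kb (log scale) of the 9 genes as mean ± SD of 5 B6 (blue) and 5 D2 (orange) mice, per kb of all annotated exons (left) and of the longest transcript (right). Gria1 is highest in both panels, at 73.8 and 98.4 in B6, while the place of Gria2 moves with the length.

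Within the AMPA receptor genes, Gria2 made up 24.3% ± 1.36 of the summed level per kb of all exons in B6, against 26.2% ± 0.711 in D2 (SD, n = 5). Gria1 made up 57.2% ± 4.40 and 54.4% ± 1.43, Gria3 14.7% ± 3.48 and 15.1% ± 1.00, and Gria4 3.80% ± 0.124 and 4.34% ± 0.347. By the longest transcripts the share of Gria2 was 34.4% and 36.3%. Within the kainate receptor genes Grik5 made up 50.2% ± 2.68 (B6) and 49.4% ± 1.91 (D2). The summed level was 129 ± 3.84 CPM per kb in B6 and 122 ± 5.36 in D2 for the AMPA receptor genes, and 62.4 ± 1.67 and 64.5 ± 1.52 for the kainate receptor genes. These shares and sums are descriptions and were not tested.

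Ratios of counts within a mouse need no scaling between libraries. Of 7 ratios, those of the other AMPA receptor genes to Gria2 and those of the other kainate receptor genes to Grik5, 0 passed a two-sided exact permutation test over the mice, adjusted or not. The lowest p was that of Gria1 to Gria2 (exact permutation test, n = 5 mice each, p = 0.0635, adjusted p = 0.306 over the 7 ratios by the Benjamini-Hochberg method). This ratio was 0.707, 0.852, 0.609, 0.705 and 0.657 in B6 and 0.637, 0.609, 0.602, 0.589 and 0.671 in D2. The highest 3 of the 10 values were those of B6 replicates 1, 2 and 4. The mean log2 ratio was lower in D2 by a difference of -0.18, with SDs of 0.180 in B6 and 0.075 in D2. It was -0.11 without B6 replicate 2 alone, which had the highest ratio. Leaving out B6 replicates 3 and 5 gave -0.28 (exact permutation p = 0.0357, which 3 and 5 mice cannot go below, adjusted p = 0.125). The ratio of Gria3 to Gria2 reached the same p without these mice, but was higher in D2, by 0.17 (exact permutation p = 0.0357, adjusted p = 0.125). For Grik1 to Grik5 the difference was 0.33 (exact permutation p = 0.0873, adjusted p = 0.306), and without B6 replicates 3 and 5 it was 0.20 (exact permutation p = 0.393, adjusted p = 0.458).

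The genes that work with these receptors were read from 7 lists with 47 genes, all of them in the table. In the same edgeR fit 13 of the 47 (27.7%) passed the threshold, 4 higher and 9 lower in D2, where 8.5% and 9.83% of all genes passed in these directions. All but 1 of the 47 averaged 1000 counts or more, and among such genes 22.3% passed in either direction. The median log2 fold change of the 47 was -0.061, beside 0.0036 over all genes. It was not taken over the genes averaging 1000 counts or more, so these medians do not show a lean of the 47.

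**Figure D5:**
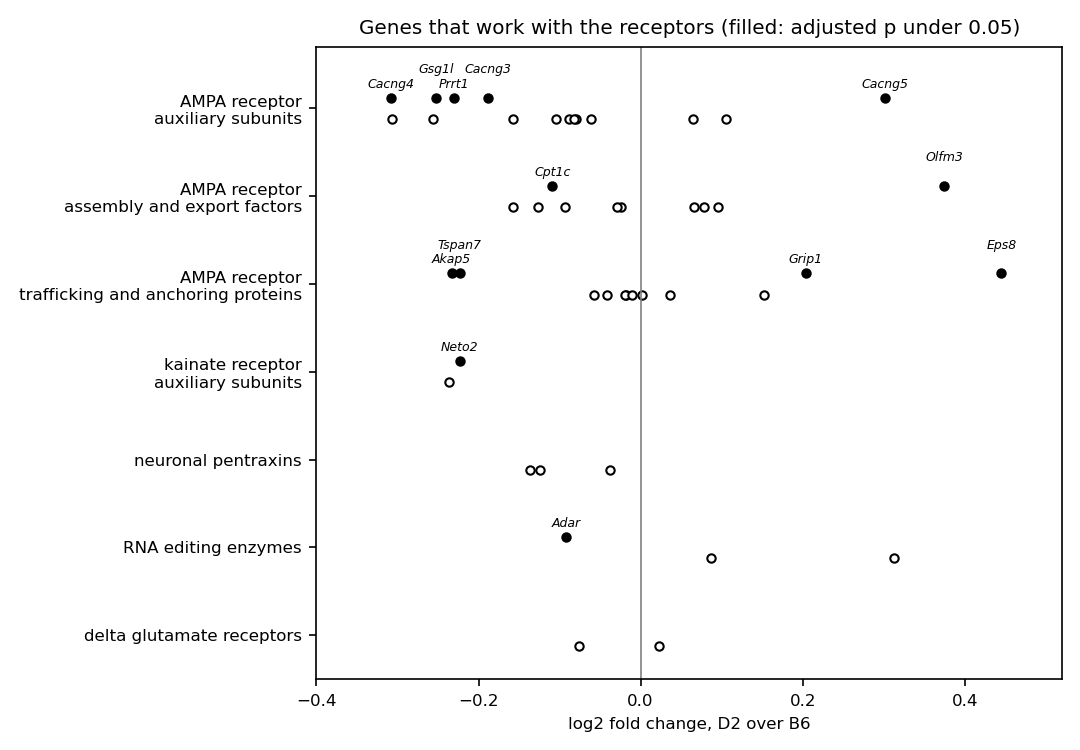
Log2 fold change of D2 over B6 (horizontal axis) of the 47 genes in 7 lists (rows), where filled and named points passed an adjusted p of 0.05 in edgeR and open points did not. In the auxiliary subunit list 4 named genes lie left of 0 and Cacng5 lies right of it at 0.30.

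AMPA receptor auxiliary subunits bind the receptor and set its gating and its number at the synapse. Of 15 genes, 4 were lower in D2, 1 was higher and 10 did not pass. Cacng4, which encodes the transmembrane AMPA receptor regulatory protein γ-4, fell from 11593 ± 831 to 9363 ± 117 normalized counts (SD, n = 5), a log2 fold change of -0.31 ± 0.045 (SE, edgeR adjusted p = 2.9e-04). No D2 mouse reached the lowest B6 mouse. Gsg1l, an auxiliary subunit that slows recovery of the receptor, fell by 0.25 on the log2 scale (edgeR adjusted p = 0.0041), and Prrt1, which encodes SynDIG4, fell by 0.23 (edgeR adjusted p = 0.0053). Cacng5 (γ-5) rose from 2605 ± 247 to 3210 ± 237, a log2 fold change of 0.30 ± 0.069 (SE, edgeR adjusted p = 0.0079). These 4 calls held whichever mouse was left out, and without B6 replicates 3 and 5. The fifth call of the list was Cacng3 (log2 fold change -0.19, edgeR adjusted p = 0.0030), and Cacng2 (stargazin), Cacng8 and Cnih2 were among the 10.

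Assembly and export factors take the receptor through the endoplasmic reticulum to the cell surface. This list also held the noelin genes Olfm1, Olfm2 and Olfm3, whose products are secreted. Of 10 genes, Olfm3 was higher and Cpt1c lower in D2, and 8 did not pass. Olfm3, of the noelin family of secreted proteins that bind AMPA receptors, rose from 6763 ± 838 to 8769 ± 1180 normalized counts (log2 fold change 0.37 ± 0.099 SE, edgeR adjusted p = 0.018). Its edgeR adjusted p was 0.073 without B6 replicates 3 and 5, and 0.051 without D2 replicate 5. Cpt1c, a neuronal carnitine palmitoyltransferase relative of the endoplasmic reticulum, fell by 0.11 on the log2 scale (SE 0.029, edgeR adjusted p = 0.020). With total counts it did not pass (adjusted p = 0.113, edgeR). Among the 8, Olfm1 had 30552 ± 16675 normalized counts in B6, against 31984 ± 5718 in D2 (SD, n = 5). Its log2 fold change was 0.066 with all mice (adjusted p = 0.922, edgeR) and 0.80 without B6 replicates 3 and 5 (edgeR adjusted p = 4.0e-04). Olfm2 likewise went from 0.078 (adjusted p = 0.772, edgeR) to 0.38 (edgeR adjusted p = 3.2e-05). With all mice and the cortical marker covariate, Olfm1 was at 0.052 (adjusted p = 0.581, edgeR) and Olfm2 at 0.045 (adjusted p = 0.601, edgeR).

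Of 12 trafficking and anchoring genes, 2 were higher and 2 lower in D2. Eps8, an actin-binding adaptor, rose from 3037 ± 272 to 4135 ± 287 normalized counts (log2 fold change 0.45 ± 0.065 SE, edgeR adjusted p = 2.9e-04), and Grip1, which encodes the scaffold that binds the tails of GluA2 and GluA3, rose from 3251 ± 113 to 3744 ± 155 (log2 fold change 0.20, edgeR adjusted p = 0.0026). For both, the lowest D2 mouse was above the highest B6 mouse. Akap5, the anchor of protein kinase A at the receptor, fell by 0.23 on the log2 scale (edgeR adjusted p = 0.026), with overlap between the strains. Tspan7, a tetraspanin that binds the GluA2 partner PICK1, fell by 0.22 (edgeR adjusted p = 0.0066) with no overlap. Akap5 did not pass with total counts (adjusted p = 0.067, edgeR), nor without B6 replicate 1 (0.056), D2 replicate 1 (0.063), D2 replicate 2 (0.054) or D2 replicate 4 (0.061).

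Neto1 and Neto2 encode the auxiliary subunits of kainate receptors. Neto2 fell from 11026 ± 1106 to 9444 ± 718 normalized counts (log2 fold change -0.22 ± 0.069 SE, edgeR adjusted p = 0.041). With single mice left out it passed in 2 of 10 fits, those without B6 replicate 2 or D2 replicate 4 (in the others the adjusted p was 0.051 to 0.096), and it had an adjusted p of 0.166 (edgeR) without B6 replicates 3 and 5. Neto1 had 26329 ± 905 in B6 and 22357 ± 6452 in D2 and did not pass (adjusted p = 0.364, edgeR). Of the RNA editing enzymes, Adarb1, which edits the Q/R site of Gria2, had 28933 ± 2117 in B6 and 30741 ± 2982 in D2 (adjusted p = 0.451, edgeR). Adar was lower in D2 by a log2 fold change of -0.092 ± 0.029 (SE, edgeR adjusted p = 0.044), which passed in 3 of 10 such fits, those without B6 replicate 3, B6 replicate 4 or D2 replicate 1 (0.053 to 0.0995 in the others), and missed the threshold with total counts (adjusted p = 0.231, edgeR). Adarb2, which edits nothing by itself as far as is known, had a log2 fold change of 0.31 (adjusted p = 0.063, edgeR). It passed in DESeq2 (adjusted p = 0.026) and in edgeR with the cortical marker covariate (adjusted p = 3.5e-04) or the replicate number as a block (0.018). Without B6 replicates 3 and 5 its log2 fold change was 0.17 (adjusted p = 0.239, edgeR).

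In edgeR, 0 of the 3 neuronal pentraxin genes and 0 of the 2 delta glutamate receptor genes passed. At an unadjusted p under 0.05, which at least 8710 of all 29883 genes passed, these counts were 0 and 1, and DESeq2 called 0 in both lists. Nptxr, the receptor of the pentraxins that gather AMPA receptors at synapses, had 24664 ± 12592 normalized counts in B6 and 24030 ± 5477 in D2. Its log2 fold change was -0.037 ± 0.292 (SE), and without B6 replicates 3 and 5 it was 0.63 (edgeR adjusted p = 0.011). Grid1 had a log2 fold change of -0.076 (adjusted p = 0.115, edgeR), and -0.10 without B6 replicates 3 and 5 (edgeR adjusted p = 0.035). Leaving out B6 replicates 3 and 5, 18 of the 47 genes were called, in a fit that called 19.2% of all genes and 26.2% of those averaging 1000 counts or more. The numbers were 5, 3 and 6 for the auxiliary, assembly and trafficking lists, 0 for the Neto genes, 2 for the pentraxins, 1 for the editing enzymes and 1 for the delta receptors. Besides those given above, genes called in this fit but not with all mice included Nptx1 (log2 fold change 0.72, edgeR adjusted p = 8.7e-04), Napb (0.35, 1.9e-05) and Nsf (0.13, 0.021). With all mice and the cortical marker covariate, Napb passed (0.12, edgeR adjusted p = 0.030). Nptx1 (-0.11, 0.198), Nsf (-0.036, 0.508), Nptxr (-0.080, 0.385) and Grid1 (-0.068, 0.087) did not pass in that fit. B6 replicates 3 and 5 were singled out by their cortical marker level, and the part of that choice in these calls was not tested.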

How the data were processed

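Per the methods and labels, the authors used fastp, STAR 2.7.10b (GRCm39, Ensembl release 108, the B6 genome for both strains), SAMtools 1.6 and featureCounts. They deposited raw counts of 29883 genes, and no gene in the table has a median of 0. The effect of aligning D2 reads to the B6 genome was not tested. Gene names, lengths and sequence came from GENCODE vM39 and GRCm39, which matched 29519 identifiers.

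The strain effect was fitted with edgeR 4.0.16 (TMM scaling, quasi-likelihood F test, R 4.3.3), and p-values were adjusted over all genes by the Benjamini-Hochberg method at 0.05. Standard errors are the absolute log2 fold change over the square root of F. For ratios, all 252 assignments of mice to strains were enumerated, two-sided. DESeq2 1.42.0, other scalings and filters, a cortical marker covariate, a replicate block and leaving out each mouse were the alternatives, and the fits without B6 replicates 3 and 5 and the canonical transcript length were chosen after seeing the data. The scripts were tested on simulated data. The cortical marker covariate was the mean of log2(CPM + 0.5) over the cortical markers, which gives each marker the same weight. Likeness to Gria1 used log2(normalized count + 0.5).

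The members and lists were chosen with earlier results of these data known. Genes named were all 9 members, at most 4 called genes per list with the largest change, and the most counted gene of a list with none. Adarb1, Adarb2, Neto1, Olfm1, Olfm2, Abhd6 and other uncalled genes, and Cacng3, were named after their values were seen. Python 3.11.15 with scipy 1.17.1 and matplotlib 3.10.9 was used otherwise.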

Additional observations from a re-analysis of the deposited data

Results flagged for a closer look

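The samples were screened for 1 mouse far from the other 4 of its strain (Dixon's test, 126 groups of 5), which chance alone flags in about 1 of 20 groups, and 2 genes were marked. Abhd6, a hydrolase that limits AMPA receptor delivery, had 4340 normalized counts in B6 replicate 5 and between 4184 and 4226 in the other B6 mice. Grip1 had 3445 in B6 replicate 1 and between 3152 and 3235 in the others, all below the D2 mice. None of the 9 receptor genes and none of the 7 ratios was marked.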

How the results depend on the processing

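Of the 9 receptor genes 1 passed with all mice, 2 under DESeq2, 2 with DESeq2 size factors in edgeR, 4 with the cortical marker covariate, 2 without B6 replicates 3 and 5, and 0 to 2 with single mice left out. The log2 fold change of Gria1 was -0.12 with total counts, where it missed the threshold, and -0.18 to -0.13 with single mice left out. Grik1 passed with DESeq2 (0.35), DESeq2 size factors (0.35), total counts (0.37) and the covariate (0.39), and ran from 0.29 to 0.46 with single mice left out. With the covariate Gria3 (-0.094) and Grik4 (0.23) passed, as did 20 of the 47 partner genes. This fit called 25.9% of all genes, against 18.3% without the covariate, and 36.1% of those averaging 1000 counts or more, as all but 1 of the 47 did. Without B6 replicates 3 and 5 the sign turned for Gria3 (0.24), Grik2 (-0.12), Nptxr (0.63), the log2 ratio of Gria3 to Gria2 (0.17) and that of Grik2 to Grik5 (-0.18), and 2 receptor genes did not overlap between strains, as was the case for 24.6% of all genes with 3 against 5 mice. Nptxr was 0.0040 with total counts. With single mice left out the ranges were -0.024 to 0.047 for Gria2, -0.14 to 0.051 for Gria3, -0.050 to 0.086 for Grik2, -0.00028 to 0.11 for Grik3, 0.13 to 0.23 for Grik4, -0.0057 to 0.051 for Grik5, -0.17 to 0.17 for Nptxr, -0.23 to -0.11 for Gria1 to Gria2, -0.12 to 0.046 for Gria3 to Gria2, -0.078 to 0.099 for Grik2 to Grik5, -0.043 to 0.090 for Grik3 to Grik5, and 0 to 1 for the receptor genes without overlap. By the longest and the canonical transcripts the share of Gria2 was 34.4% and 33.1% in B6 and 36.3% and 34.96% in D2, and that of Grik5 was 56.8% and 58.1% in B6 and 56.0% and 57.3% in D2. Replicate numbers did not pair the mice: same-numbered mice had correlations of deviations from -0.443 to 0.399. With the replicate number as a block Gria1 was at -0.15 (edgeR adjusted p = 0.053), Grik1 at 0.36 (edgeR adjusted p = 0.023) and Nptxr at 0.080. The calls of Cpt1c (edgeR adjusted p = 0.058), Akap5 (0.060) and Adar (0.101) were lost, with 12 of the 47 partner genes called. The share of all genes called was not taken for the block, the DESeq2 size factors or the fits with single mice left out. The counts of calls in those fits therefore cannot be set beside a general rate. The cause of these shifts was not tested.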

Other observations

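With the mean of each strain taken out, the genes with at least 100 counts whose log2 level followed Gria1 most closely over the 10 mice were Csrp2, which encodes a LIM domain protein (r = 0.991), and H3f3b, which encodes a variant histone (r = 0.970). Over the 8 mice without B6 replicates 3 and 5 these values were 0.985 and 0.904. They were the highest of 15388 genes ranked and describe these libraries only.

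B6 replicates 3 and 5 differed from the other 3 B6 mice in opposite directions among the 9 genes. The mean of the pair was 1.56 times that of the others for Gria3 and 1.27 times for Grik3, while it was 0.773 times for Grik2, 0.816 times for Grik4, 0.834 times for Grik1 and 0.902 times for Gria1. For Gria2, Gria4 and Grik5 it lay between 1.05 and 1.07 times. These mice were singled out by their cortical marker level, and no test was made.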
